A study of Mus musculus with 7 samples.

Results

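The genes described here encode the enzymes and the transporter that set the fate of the amino acid arginine in macrophages. They are Arg1, Arg2, Nos2, Ass1, Asl, Slc7a2 and Odc1, 7 of the 22180 genes tested. They were chosen by name, and each had exactly 1 probe set on the array whose annotation gave its symbol alone. The data come from 7 Affymetrix Mouse Gene 2.0 ST arrays, 1 for each sample of macrophages sorted from the colon lamina propria as CD45+ CD11b+ CD64+ MHCII+ Ly6C- cells. Every mouse had been given 5% dextran sulphate sodium (DSS), which injures the colon epithelium and causes colitis, for 5 days and then plain water for 3 days. All mice carried floxed Rictor alleles, Rictor being a subunit of the kinase complex mTORC2. The 3 control samples were Rictor fl/fl LysM+/+, and the other 4 were Rictor fl/fl LysM+/cre, in which cre is expressed from the lysozyme locus of myeloid cells. No group carried cre without floxed alleles, and the labels do not say whether a sample was 1 mouse or a pool, or give age. The p-values therefore measure the spread between these samples.

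Macrophages draw on arginine through competing enzymes. Arginase, as cytosolic ARG1 or mitochondrial ARG2, splits it into urea and ornithine, and ornithine decarboxylase (ODC1) turns ornithine into putrescine, the first polyamine. Inducible nitric oxide synthase (NOS2) instead oxidises arginine to nitric oxide (NO) and citrulline, which ASS1 and ASL rebuild into arginine, while the transporter SLC7A2 brings arginine into the cell. High NOS2 is a classic mark of macrophages stimulated by interferon-gamma and bacterial products, and high ARG1 of those stimulated by IL-4 and IL-13, although ARG1 is also induced by bacterial products and hypoxia.

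The deposited values are log2 intensities, so a step of 1 is a doubling. The macrophage markers were bright throughout. The mean log2 signal over 13 macrophage marker genes lay between 11.06 and 11.29 on the LysM+/+ arrays and between 11.06 and 11.40 on the LysM+/cre arrays. Single markers differed, 7 with a higher and 6 with a lower mean with cre. At a limma unadjusted p under 0.05, 2 were higher and 1 lower, against 6.56% and 4.93% of all genes. Fcgr1, which encodes CD64, was at 0.97 ± 0.258 (SE, limma adjusted p = 0.362). Itgam, which encodes CD11b, was at 0.53 ± 0.193 (SE, limma adjusted p = 0.415) and Cd68 at -0.20 ± 0.0786 (SE, limma adjusted p = 0.419). The even list mean hides differences between arrays. Cx3cr1 was highest on LysM+/+ array 2 (10.29) and lowest on LysM+/cre array 3 (7.81), as was Lyz2 (10.36 and 9.77). For 2 of the 13 markers the same arrays were the lowest and the highest instead, against 3.94% of all genes. Rictor itself averaged 7.76 ± 0.0299 (SD, n = 3) and 7.88 ± 0.247 (SD, n = 4), a difference of 0.12 ± 0.134 (SE, limma adjusted p = 0.749). The exons that the Rictor probe set reads are not known here, so this value does not check the deletion and the genotypes are those of the labels.

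All 7 genes had a higher mean with cre, as did 51.4% of all genes tested, and none passed the test across all genes. By limma with Benjamini-Hochberg adjustment over 22180 genes, 0 genes (0%) had an adjusted p under 0.05. An unadjusted p under 0.05 was found for 2549 genes, or 11.5%, and among the 7 for Asl alone, a call lost under 10 of 17 alternatives. Arg2 and Nos2 had means at least 2-fold higher with cre, as did 0.252% of all genes, but with a wide error. The arrays of the genotypes overlapped for each of the 7 genes, whereas 8.79% of all genes had no overlap. What stood out was the spread between arrays of 1 genotype for Arg1, Arg2, Nos2 and Slc7a2, above all for Arg1 and, among controls, Arg2. The ranges of Ass1, Asl and Odc1 over the 7 arrays were only the 6297th, 6249th and 3567th widest of 22180 genes.

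**Figure D1:**
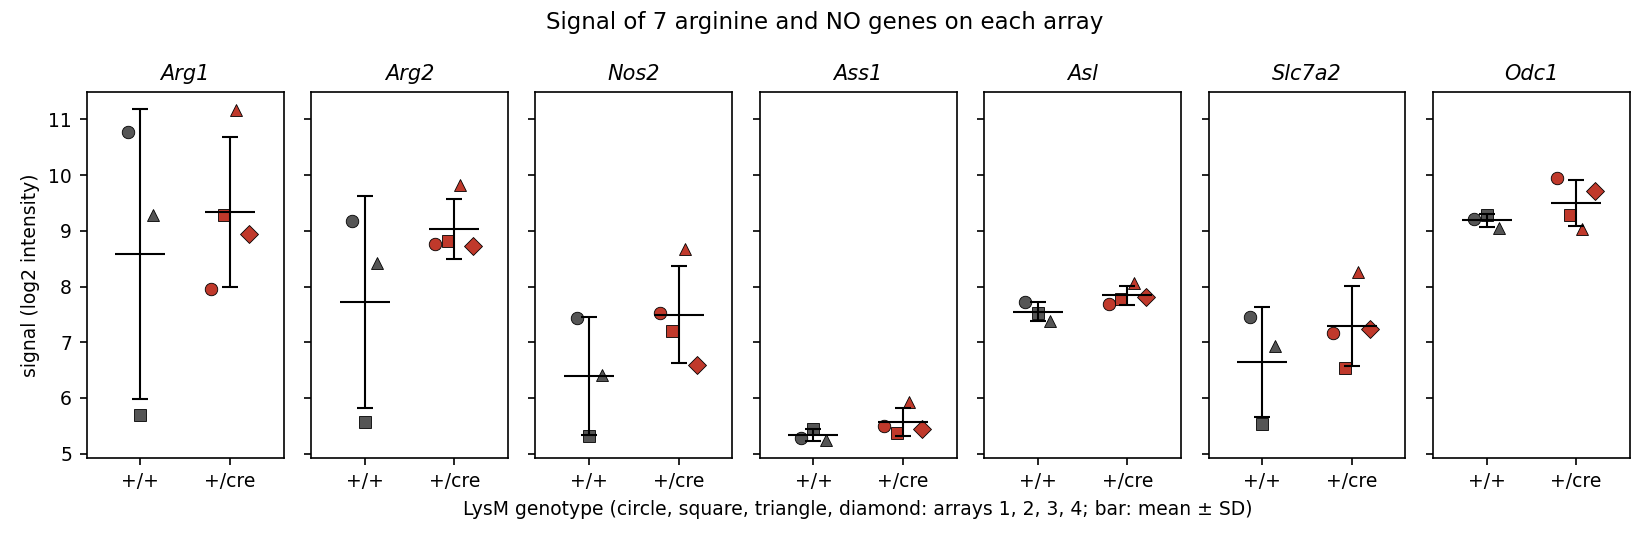
Signal (log2 intensity) of each of the 7 genes on the 3 LysM+/+ (grey) and 4 LysM+/cre (red) arrays. Symbols mark the array number and bars the mean ± SD. LysM+/+ array 2 (grey square) lies at 5.70 for Arg1 and 5.57 for Arg2, far below the other arrays, and LysM+/cre array 3 (red triangle) is the highest for every gene but Odc1.

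Among the arginases, Arg1 gave 10.77, 5.70 and 9.29 on LysM+/+ arrays 1, 2 and 3, and 7.95, 9.29, 11.17 and 8.94 on LysM+/cre arrays 1, 2, 3 and 4. The lowest value was on a control array and the highest on a cre array, but control array 1 lay above 3 of the 4 cre arrays. The whole range was 5.47 on the log2 scale, or 44.2-fold, the 10th widest of 22180 genes. At 5.70, Arg1 on LysM+/+ array 2 was close to 5.55, the mean signal of the median gene, and no detection call was used here to say whether it lay above background. The same limit applies on that array to Arg2 (5.57), Nos2 (5.32) and Slc7a2 (5.54). The Arg1 group means were 8.58 ± 2.61 (SD, n = 3) and 9.34 ± 1.35 (SD, n = 4). Their difference was 0.75 ± 1.27 (SE, limma adjusted p = 0.839), with a 95% interval from -2.27 to 3.77. The direction rested on LysM+/+ array 2. Without it the Arg1 difference was -0.69 ± 0.927 (SE), and without LysM+/cre array 3 it was 0.14.

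Arg2, the mitochondrial arginase, read 9.18, 5.57 and 8.43 on the LysM+/+ arrays and 8.77, 8.82, 9.83 and 8.72 on the LysM+/cre arrays. The same control array was again far below the other 6, and the same cre array was again the highest. The means were 7.73 ± 1.91 (SD, n = 3) and 9.04 ± 0.532 (SD, n = 4), a difference of 1.31 ± 0.832 (SE, limma adjusted p = 0.571; 95% interval -0.66 to 3.29). Without LysM+/+ array 2 the Arg2 difference was 0.23 ± 0.389 (SE), and without LysM+/+ array 1 it was 2.04 (limma unadjusted p = 0.0480, adjusted p = 0.393). Its range of 4.27, or 19.2-fold, was the 30th widest of all genes.

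In the NO synthase arm, Nos2 lay at 7.43, 5.32 and 6.42 on the LysM+/+ arrays and at 7.52, 7.21, 8.67 and 6.59 on the LysM+/cre arrays. LysM+/+ array 2 was again the lowest and LysM+/cre array 3 the highest, and the genotypes overlapped. The Nos2 means of 6.39 ± 1.06 (SD, n = 3) and 7.50 ± 0.874 (SD, n = 4) differed by 1.11 ± 0.621 (SE, limma adjusted p = 0.530; 95% interval -0.36 to 2.59). The difference ranged from 0.58 without LysM+/+ array 2 to 1.63 without LysM+/+ array 1 (limma unadjusted p = 0.0417, adjusted p = 0.379).

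Of the enzymes that remake arginine from citrulline, Asl (argininosuccinate lyase) read 7.73, 7.52 and 7.39 without cre and 7.69, 7.78, 8.07 and 7.82 with cre. Only control array 1 reached into the range of the cre arrays. The difference was 0.29 ± 0.119 (SE), a 1.23-fold change, with an unadjusted p of 0.0432 and a limma adjusted p of 0.427. The unadjusted p was at or over 0.05 under 10 of 17 alternatives. It was 0.0689 after quantile normalization, 0.0541 with an intensity trend, 0.0588 with array weights and 0.149 with the replicate number as a block. On leaving out single arrays it ran from 0.0204 without LysM+/+ array 1 to 0.144 without LysM+/+ array 3. Ass1 (argininosuccinate synthase) was dim on all arrays, at 5.29, 5.45 and 5.25 without cre and 5.50, 5.38, 5.93 and 5.45 with cre. The cre mean rested on array 3, and the other 3 cre arrays lay within 0.12 of each other. The difference was 0.23 ± 0.141 (SE, limma adjusted p = 0.555), and without LysM+/cre array 3 it was 0.11.

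Slc7a2, the arginine transporter CAT2, read 7.46, 5.54 and 6.93 on the LysM+/+ arrays and 7.17, 6.53, 8.26 and 7.23 on the LysM+/cre arrays. It took the same lowest and highest arrays as the arginases and Nos2. The difference was 0.65 ± 0.548 (SE, limma adjusted p = 0.660), and without LysM+/+ array 2 it was 0.10.

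Odc1, which starts polyamine synthesis from ornithine, read 9.22, 9.29 and 9.05 without cre and 9.94, 9.29, 9.04 and 9.72 with cre. Here LysM+/cre array 3 was the lowest of all 7, only 0.01 below LysM+/+ array 3, and LysM+/cre array 1 was the highest. The difference was 0.31 ± 0.217 (SE, limma adjusted p = 0.606). It was 0.46 without LysM+/cre array 3 (limma unadjusted p = 0.0426, adjusted p = 0.469) and 0.16 without LysM+/cre array 1.

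**Figure D2:**
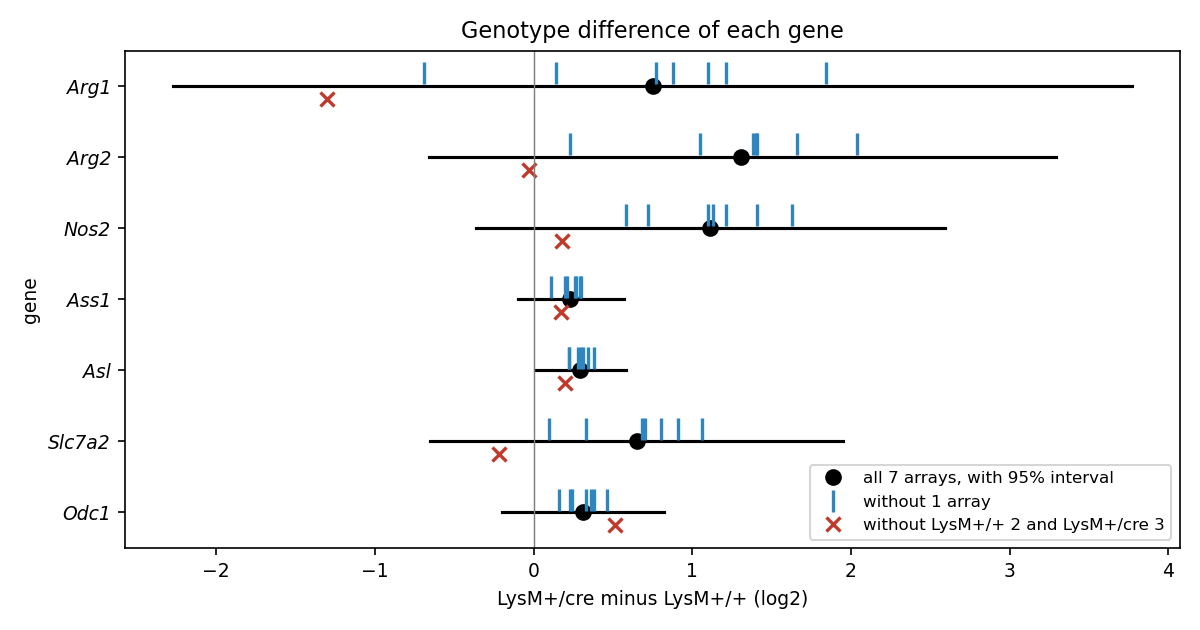
Genotype difference (LysM+/cre minus LysM+/+, log2) of each gene with all 7 arrays (black, with its 95% interval), without 1 array (blue) and without both LysM+/+ array 2 and LysM+/cre array 3 (red cross). The Arg1 difference runs from -0.69 to 1.84 when 1 array is left out, and the Asl difference from 0.22 to 0.38.

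The arms were compared through Arg1 and Nos2, the enzymes at the branch point. The log2 signal of Arg1 minus that of Nos2 was 3.34, 0.39 and 2.87 on the LysM+/+ arrays and 0.43, 2.08, 2.49 and 2.35 on the LysM+/cre arrays. Each genotype thus had 1 array near 0.4 and the others above 2. These 2 arrays were not alike in level. On LysM+/+ array 2 Arg1 and Nos2 (5.70 and 5.32) lay near 5.55, the mean signal of the median gene. On LysM+/cre array 1 they read 7.95 and 7.52. The cre arrays minus the controls gave -0.36 (means 1.84 ± 0.955, n = 4, and 2.20 ± 1.59, n = 3, SD), with p = 0.686 in a two-sided exact permutation test over all 35 splits, where the smallest possible p is 0.0286. On leaving out 1 array the difference moved most without LysM+/+ array 2, to -1.27 (exact permutation p = 0.200), and its sign turned without LysM+/+ array 1 (0.21) or LysM+/cre array 1 (0.11). No shift between these 2 genes was detectable with these 7 arrays. The median genotype difference was 1.03 over the 2 arginases and 0.29 over Nos2, Ass1 and Asl, and the arms as groups were not tested against each other.

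Arg1, Arg2, Nos2 and Slc7a2 had the same lowest array, LysM+/+ array 2, and the same highest array, LysM+/cre array 3. Of all genes tested, 874 (3.94%) shared those extremes, a pattern picked after the values were seen. Across the 7 arrays Arg1 and Arg2 correlated at r = 0.91 (exact permutation p = 0.00476, adjusted p = 0.0333 over 21 pairs) and at a Spearman rho of 0.81 (exact permutation p = 0.0349, adjusted p = 0.264). Without the arrays farthest from the Arg1 median, which were those same extremes, r was 0.58.

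Arg2 and Nos2, from opposite arms, correlated at r = 0.89 (exact permutation p = 0.000992, adjusted p = 0.0208) with a rho of 0.89 (exact permutation p = 0.0123, adjusted p = 0.258), and r was 0.75 without the extreme arrays. For Arg2 and Slc7a2 r was 0.91 (exact permutation p = 0.00476, adjusted p = 0.0333), rho 0.75 (exact permutation p = 0.0663, adjusted p = 0.264), and r without the extremes 0.46. Arg1 and Nos2 gave r = 0.81 (exact permutation p = 0.0365, adjusted p = 0.121) and rho = 0.58 (exact permutation p = 0.187, adjusted p = 0.386). Without the extreme arrays their r was 0.04. Leaving out the arrays farthest from the Arg1 median narrows the range of Arg1, so this value cannot show what the relation rested on. Once each gene was centred on its genotype means, r was 0.95 for Arg1 with Arg2, 0.85 for Arg2 with Nos2, 0.89 for Arg2 with Slc7a2 and 0.85 for Arg1 with Nos2, with the extreme arrays still included. Odc1 did not follow. Its r with Arg1 was -0.38 (exact permutation p = 0.395, adjusted p = 0.553) and its rho -0.77 (exact permutation p = 0.0492, adjusted p = 0.264), and r was -0.72 without the extreme arrays. No other pair passed the adjustment.

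**Figure D3:**
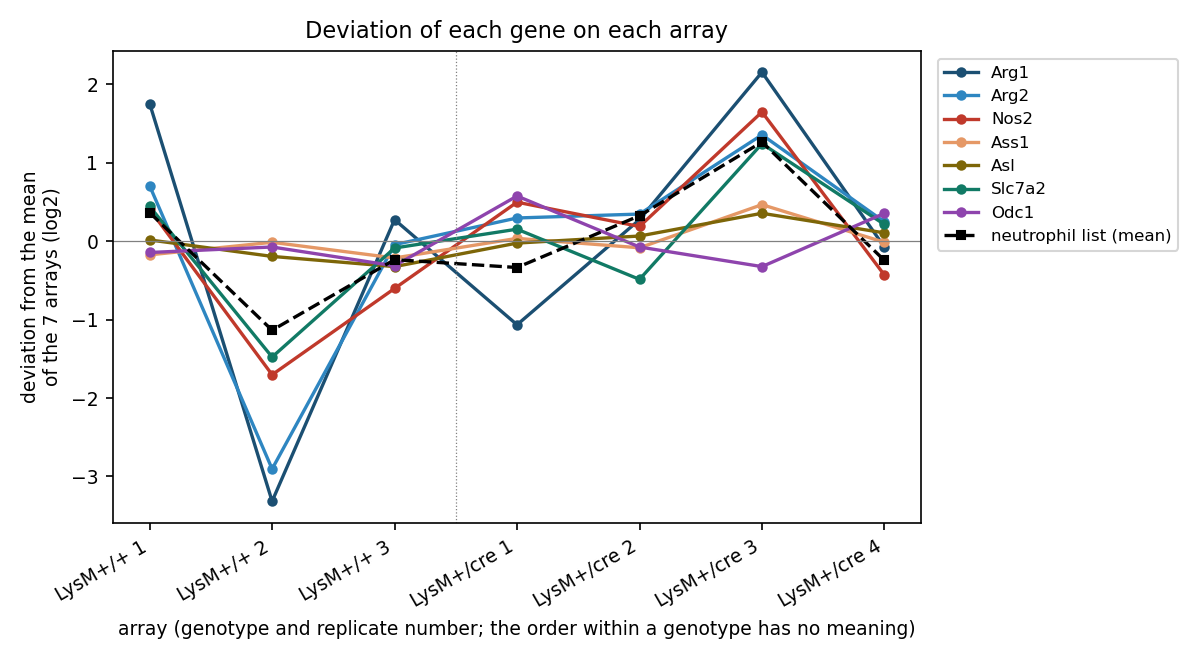
Deviation of each gene from its mean over the 7 arrays (log2, solid lines), with the mean level of 14 neutrophil markers treated the same way (dashed). Arg1, Arg2, Nos2, Slc7a2 and the neutrophil list are all lowest on LysM+/+ array 2 and highest on LysM+/cre array 3. Odc1 is at its lowest on LysM+/cre array 3, only 0.01 below LysM+/+ array 3.

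The neutrophil marker list had the same lowest and highest arrays as Arg1, although most of its genes did not have both. The mean log2 level of the 14 neutrophil genes was 7.29, 5.79 and 6.69 on the LysM+/+ arrays and 6.59, 7.25, 8.19 and 6.68 on the LysM+/cre arrays. Over all genes, 16.5% were lowest on LysM+/+ array 2, 15.0% were highest on LysM+/cre array 3 and 3.94% had both extremes there. Of the 14 neutrophil genes, the counts were 7, 9 and 5. Of the 3 brightest, Csf3r, the G-CSF receptor, had both (9.56 and 10.45), whereas Il1r2, a decoy receptor for IL-1, was highest on LysM+/cre array 1 (12.40) and Mmp9, gelatinase B, lowest on LysM+/+ array 3 (7.36). Ly6g, which marks neutrophils, was highest on LysM+/cre array 2 (8.10). On LysM+/+ array 2 and LysM+/cre array 3 S100a8, a calprotectin subunit abundant in neutrophils, read 4.74 and 9.87, and Mmp8, neutrophil collagenase, 4.70 and 10.16. These last 3 genes were named after their values were seen. The granule genes Mpo, Elane and Camp lay below the median gene, and 12 of the 14 markers had a higher mean with cre.

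The monocyte list lay at 7.07 to 8.08 without cre and 8.47 to 8.77 with cre, with no overlap. Of its 7 genes, 6 had a higher mean with cre, as did 51.4% of all genes. The median difference was 1.07, against 0.00 for all genes. At a limma unadjusted p under 0.05, 1 was higher and 1 lower, against 6.56% and 4.93% of all genes. Both extremes fell on the same arrays as Arg1 for 3.94% of all genes and for 2 of the list's 7 genes. They were Hp (haptoglobin), at 5.64 and 10.97, and Chil3, a chitinase-like protein, at 3.34 and 9.56. The brightest of the list, F13a1, a coagulation factor chain, ran the other way. It was highest on LysM+/+ array 2 (11.20), and every cre array lay below every control array (-1.08 ± 0.385, SE, unadjusted p = 0.0272, limma adjusted p = 0.414). Plac8 was highest on LysM+/cre array 1 (10.35). Ly6c2, which encodes a Ly6C protein, read 6.87, 7.15 and 7.70 without cre and 9.30, 7.69, 7.87 and 8.48 with cre, a difference of 1.09 ± 0.408 (SE, unadjusted p = 0.0323, limma adjusted p = 0.415). Ccr2, the receptor that draws monocytes into tissue, read 8.21 on LysM+/+ array 2 and 6.82 on LysM+/cre array 3. Chil3, Ly6c2 and Ccr2 were named after their values were seen. The CD64+ MHCII+ Ly6C- gate selects against neutrophils and Ly6C+ monocytes. In sorted cells measured in bulk, more cells of a type and more RNA per cell cannot be told apart, and the part of neutrophils or monocytes in the arginase and Nos2 values was not tested.

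No other marker list had both its extremes on those arrays. The colon epithelium list, 15 of whose 16 genes had a lower mean with cre, lay at 6.54, 7.87 and 8.02 without cre and between 6.69 and 7.70 with cre, where array 3 read 7.05. For fibroblast and smooth muscle the list mean ran from 7.19 to 7.47 without cre and from 6.72 to 7.21 with cre (9 of 11 lower), and for endothelium from 5.59 to 6.33 and from 5.74 to 5.91 (9 of 10 lower). Dendritic cell markers (5 of 7 lower) lay at 6.88 to 7.52 and 6.21 to 7.51, and T and NK cell markers (6 of 8 lower) at 5.18 to 5.27 and 5.02 to 5.18. Those of eosinophils and mast cells (5 of 11 lower) lay at 4.22 to 4.77 and 4.23 to 4.35, with 10 of the 11 below the median gene, and those of B and plasma cells (2 of 7 lower) at 6.26 to 6.29 and 6.16 to 6.60.

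The genes most like Arg1 over the 7 arrays, out of 10344 named genes above the median gene, were Acod1 (r = 0.994), Sod2 (0.990), Acp5 (0.987), Irak3 (0.985) and Rnd1 (0.984). Acod1 makes itaconate in activated macrophages, Sod2 is mitochondrial superoxide dismutase, Acp5 is tartrate-resistant acid phosphatase and Irak3 restrains Toll-like receptor signalling. Acod1 read 10.81, 8.38 and 10.07 without cre and 9.60, 9.91, 11.01 and 9.98 with cre. Arg2 was 107th in that order, Slc7a2 213th and Nos2 397th. For Nos2 the order began with Cpne2 (r = 0.992), Pcnx (0.989), Ppp2cb (0.983), Snora73b (0.980) and Nprl2 (0.980), with Arg2 175th, Slc7a2 183rd and Arg1 466th. All of these genes had their lowest value on LysM+/+ array 2 and their highest on LysM+/cre array 3. These were picked as the highest of 10344 correlations over only 7 arrays. How often values this high arise by chance was not tested, and the order is a description.

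Of 13 measured genes of polyamine synthesis and turnover, Odc1 included, 7 had a higher and 6 a lower mean with cre. Smox, Srm and Dhps, or 3 of the 13, were higher with cre at an unadjusted p under 0.05 and 0 lower, against 6.56% and 4.93% of all genes, and the median difference was 0.10 against 0.00 for all genes. Smox, spermine oxidase, which turns spermine back into spermidine, read 9.12, 8.50 and 9.08 without cre and 10.37, 9.46, 9.69 and 9.85 with cre. Its difference was 0.94 ± 0.247 (SE, unadjusted p = 0.00672, limma adjusted p = 0.362), with values between 0.74 and 1.07 on leaving out single arrays. Srm, spermidine synthase, read 7.53, 7.43 and 7.28 without cre and 7.95, 7.98, 7.55 and 8.14 with cre, a difference of 0.49 ± 0.144 (SE, limma adjusted p = 0.394). Dhps, which uses spermidine to modify the translation factor eIF5A, was 0.28 ± 0.104 higher (SE, limma adjusted p = 0.415). Every cre array lay above every control array for these 3 genes, and every cre array below every control array for Azin2, an antizyme inhibitor (-0.29 ± 0.133, SE, limma adjusted p = 0.454). Thus 4 of the 13 had no overlap, against 8.79% of all genes. None passed the adjustment over all genes.

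**Figure D4:**
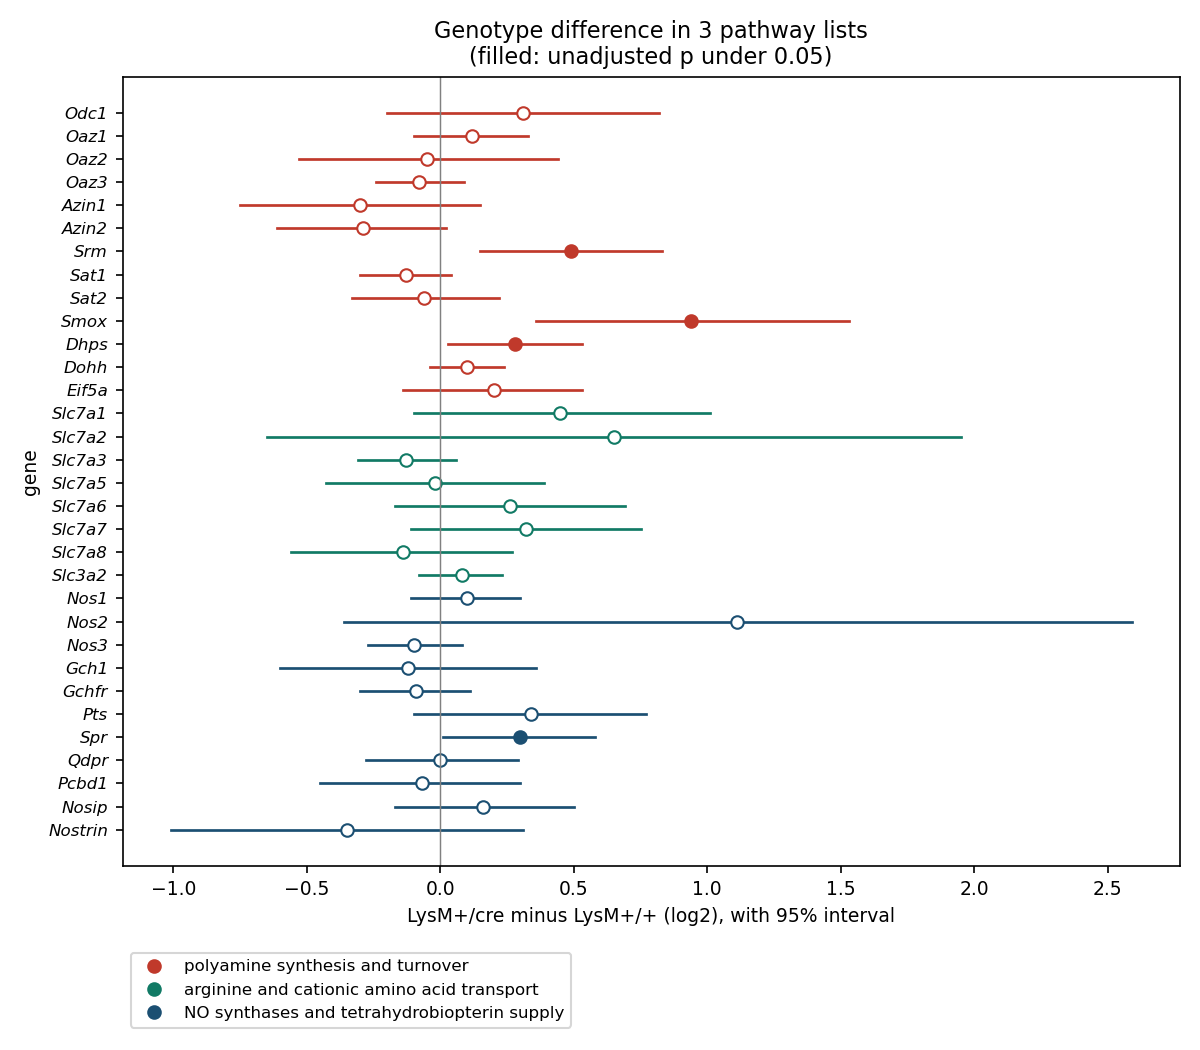
Genotype difference (LysM+/cre minus LysM+/+, log2) with its 95% interval for the genes of polyamine synthesis and turnover, arginine and cationic amino acid transport, and NO synthases with tetrahydrobiopterin supply. The transport list includes Slc7a5 and Slc7a8, which carry neutral amino acids. Filled points have an unadjusted p under 0.05 (Srm, Smox, Dhps and Spr), and the intervals of Nos2 and Slc7a2 are among the widest.

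Promoter sequence is shown for Ass1 and Odc1, the 2 of the 7 genes that RefSeq's promoter table (GRCm38.p6) matched. Their profiles differed, LysM+/cre array 3 being the highest for Ass1 and, by only 0.01, the lowest for Odc1. The stretches end at the base before the annotated start of the gene and run 5′ to 3′ on the plus strand, Ass1 at chr2:31470020-31470269 and Odc1 at chr12:17544623-17544807. Capitals mark the E-box CACGTG, to which MYC and related factors bind, and the GC box GGGCGG, to which SP1 binds, on either strand.
Ass1: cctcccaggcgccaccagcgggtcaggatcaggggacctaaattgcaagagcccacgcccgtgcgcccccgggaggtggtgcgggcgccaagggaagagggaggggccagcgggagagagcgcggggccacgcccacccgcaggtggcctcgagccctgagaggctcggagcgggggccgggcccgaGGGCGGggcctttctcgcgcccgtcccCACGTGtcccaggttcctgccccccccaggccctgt
Odc1: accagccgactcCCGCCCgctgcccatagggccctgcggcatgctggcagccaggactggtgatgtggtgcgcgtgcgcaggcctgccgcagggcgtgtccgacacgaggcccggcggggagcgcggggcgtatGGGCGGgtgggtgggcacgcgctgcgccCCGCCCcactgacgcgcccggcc
The Ass1 stretch of 250 bases held 1 E-box, starting 36 bases before the gene's start, and 1 GC box. Of 32851 promoter windows of that length, 6.02% held the E-box and 32.7% the GC box. The Odc1 stretch of 185 bases held 3 GC boxes and no E-box. Its comparison windows were the first 185 bases of each promoter, which end short of the start in RefSeq's table. Of these, 21.8% held the GC box and 3.88% the E-box. Neither stretch held TATAA on either strand, which was in 22.8% and 16.9% of the windows. For Odc1 the bases between its annotated start and the later start in RefSeq's promoter table were not searched for any of the motifs. The motifs did not overlap. These matches describe the letters only.

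Of 8 genes in the amino acid transport list, Slc7a2 included, 5 had a higher and 3 a lower mean with cre, with 0 at an unadjusted p under 0.05, against 11.5% of all genes (median 0.17). The list also held Slc7a5 (-0.02) and Slc7a8 (-0.14), which carry neutral amino acids and were both among those lower. Slc7a1, the constitutive arginine transporter CAT1, was at 0.45 ± 0.234 (SE, limma adjusted p = 0.499) and Slc7a7, a subunit of an arginine exporter, at 0.32 ± 0.181 (SE, limma adjusted p = 0.532). Slc7a1 did not share the profile of Slc7a2, with 7.46, 7.53 and 7.43 without cre and 8.26, 7.92, 7.29 and 8.23 with cre. Of 11 genes for NO synthases and their cofactor tetrahydrobiopterin, Nos2 included, only Spr, sepiapterin reductase, had an unadjusted p under 0.05 (0.30 ± 0.120, SE, limma adjusted p = 0.425; median of the list 0.00), so the list's share was near the 11.5% of all genes. Nos1 and Nos3, the neuronal and endothelial enzymes, were at 0.10 ± 0.0858 and -0.10 ± 0.0730 (SE). Gch1, which makes the cofactor's first precursor, was at -0.12 ± 0.201 (SE).

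Dimethylarginines inhibit NO synthases. Of 9 genes of their turnover, the arginine methyltransferases Prmt1 (0.57 ± 0.227, SE, limma adjusted p = 0.423) and Prmt6 (0.52 ± 0.197, SE, limma adjusted p = 0.416) were higher at an unadjusted p under 0.05 and 0 lower, against 6.56% and 4.93% of all genes (median 0.00). Of 10 genes of NO sensing and nitrosothiol removal, 3 were lower and 1 higher at that level, against 4.93% and 6.56% of all genes (median -0.01). The guanylate cyclase subunits Gucy1a1 (-0.47 ± 0.178, SE) and Gucy1a2 (-0.25 ± 0.0990, SE) and the cGMP phosphodiesterase Pde5a (-0.79 ± 0.277, SE) were lower, with limma adjusted p-values of 0.416, 0.423 and 0.408. These 3 lay near or below 5.55, the mean signal of the median gene, and no detection call was used. Means without and with cre were 5.30 and 4.83 for Gucy1a1, 4.72 and 4.48 for Gucy1a2 and 5.81 and 5.02 for Pde5a. Without LysM+/+ array 3 the difference was 0.37 for Prmt1, -0.28 for Gucy1a1 and -0.52 for Pde5a. Vasp, a substrate of the cGMP-dependent kinase, was 0.37 ± 0.113 higher (SE, limma adjusted p = 0.394). Pde5a read 5.97, 5.11 and 6.35 without cre and 5.11, 5.01, 4.83 and 5.13 with cre, so control array 2 lay among the cre arrays. Gucy1a1 and Pde5a are known from smooth muscle, whose markers were also lower as given for the fibroblast and smooth muscle list, and the part of such cells in these values was not tested.

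Regulators of Arg1 differed in both directions. Of 14 measured, 2 were higher and 3 lower at an unadjusted p under 0.05, against 6.56% and 4.93% of all genes, with a median of 0.09. Il13ra1, a receptor chain for IL-13 and IL-4, was 0.48 ± 0.114 higher (SE, limma adjusted p = 0.347) and Stat6, which carries the signal of that receptor, 0.30 ± 0.102 higher (SE, limma adjusted p = 0.406). Il13ra1 read 8.58, 8.84 and 8.70 without cre and 9.40, 9.08, 9.02 and 9.26 with cre, with no overlap. Irf4, a transcription factor of alternative activation, was -0.91 ± 0.295 (SE, limma adjusted p = 0.403), Kdm6b, a histone H3K27 demethylase, -0.25 ± 0.0852 (SE, limma adjusted p = 0.406) and Stat3 -0.19 ± 0.0794 (SE, limma adjusted p = 0.430). Without LysM+/+ array 3 the Kdm6b difference was -0.15. Irf4 read 9.43 on LysM+/+ array 2, its highest, and 7.47 on LysM+/cre array 3, its lowest, the reverse of Arg1, and its difference was -0.60 without that control array.

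Of 14 measured regulators of Nos2, 1 was higher and 3 lower at an unadjusted p under 0.05, with a median of 0.05. Over all genes 6.56% were higher and 4.93% lower, so the share that was higher was near the background. Ifngr2, a chain of the interferon-gamma receptor, was 0.36 ± 0.110 higher (SE, limma adjusted p = 0.395). Lower were Nfkbiz, a nuclear partner of NF-kB (-0.50 ± 0.111, SE, limma adjusted p = 0.333), Irf1, an interferon-induced activator of Nos2 (-0.41 ± 0.165, SE, limma adjusted p = 0.423), and the kinase gene Jak1 (-0.26 ± 0.108, SE, limma adjusted p = 0.433), which was at -0.15 without LysM+/+ array 3. Nfkbiz read 10.94, 10.93 and 11.10 without cre and 10.25, 10.49, 10.55 and 10.68 with cre, with no overlap. Irf1 was highest on LysM+/+ array 2 (8.75), where Nos2 was lowest.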

How the data were processed

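RNA from 7 sorted samples was hybridised to 1 array each. The values used are the deposited log2 intensities, 1 per probe set and array. The authors processed the arrays in Affymetrix Expression Console, as the design text of the series states, and the submitters' processing notes also list Transcriptome Analysis Console. Versions, the summarisation step and background correction were not given in the sources used here. Array medians lay between 5.16 and 5.22, so the values were already on a common scale, which hides a shift shared by all genes. Of 41345 probe sets, 23521 had 1 symbol in the platform annotation. The one with the highest mean was kept per gene, leaving 22180 genes, with no filter on dim signals. The number of arrays limits the precision.

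The difference LysM+/cre minus LysM+/+ was tested two-sided in limma 3.58.1 under R 4.3.3, with lmFit, eBayes and Benjamini-Hochberg adjustment over all genes. Arg1 minus Nos2 and the 21 correlations were tested by exact permutation (Python 3.11.15). In 10 simulated sets of 22180 genes made for this comparison, the code recovered 73.9% of 2-fold and 94.5% of 4-fold changes, with 5.25% false calls. The changed genes were drawn at random from all genes. These rates therefore do not describe genes with spreads as wide as those of Arg1, Arg2, Nos2 and Slc7a2, whose SEs were 1.27, 0.832, 0.621 and 0.548.

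The members, 12 pathway lists and 10 marker lists were chosen with earlier results of these data known. Named were all members, the genes of each pathway list at an unadjusted p under 0.05 or otherwise the 2 of smallest p, the 3 brightest genes of the monocyte and neutrophil lists (the rule allowed up to 3 for every marker list), and the 5 genes most correlated with Arg1 and with Nos2. Others named were chosen after their values were seen. List genes without a probe set of their own were not analysed here. The alternatives tried were 2 other scalings, a filter on dim genes, 2 other probe set rules, 2 other variance models, array weights, a replicate block, and leaving out arrays. Figures were drawn with matplotlib 3.10.9.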

Additional observations from a re-analysis of the deposited data

Results flagged for a closer look

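In the 4 LysM+/cre arrays, 45 quantities (the 7 genes, the named pathway genes, Arg1 minus Nos2 and the marker list levels) were checked for a single array far from the rest, and 3 were found, where chance gives about 1 in 20 for each. Arg2 read 9.83 on LysM+/cre array 3, against 8.72 to 8.82 on the other 3. Spr read 7.43 on the same array, against 7.80 to 7.84 on the others. Vasp read 9.72 on LysM+/cre array 2, against 9.96 to 9.98. Groups of 3 were not checked in this way, so the low Arg1 and Arg2 values on LysM+/+ array 2 do not appear here.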

How the results depend on the processing

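Under 17 alternatives (16 for Ass1, which a filter on dim genes removed) none of the 7 genes passed an adjusted p of 0.05, and the count of genes past it was 0 each time. Asl, Ass1, Odc1 and Nos2 were higher with cre under each alternative run, but some alternatives could not change a difference. Each of the 7 genes has 1 probe set, so the 2 other probe set rules returned the same values. The 2 other variance models and the filter on dim genes alter only the SE and p. Without LysM+/+ array 2 the Arg1 difference reversed to -0.69. Without that array and LysM+/cre array 3 together, a setting chosen after the data were seen, the differences of Arg1 (-1.30), Arg2 (-0.03) and Slc7a2 (-0.22) reversed, and that of Nos2 was 0.18. With 1 array left out, the differences ranged from -0.69 to 1.84 for Arg1, 0.23 to 2.04 for Arg2, 0.58 to 1.63 for Nos2, 0.10 to 1.06 for Slc7a2, 0.16 to 0.46 for Odc1, 0.11 to 0.30 for Ass1 and 0.22 to 0.38 for Asl, and Arg1 minus Nos2 from -1.27 (without LysM+/+ array 2) to 0.21, reversing to 0.21 and 0.11 without LysM+/+ array 1 and LysM+/cre array 1. Genes at an unadjusted p under 0.05 numbered 1693 to 2779 when 1 array was left out, the lowest without LysM+/cre array 1, and 2139 to 2644 under the other alternatives that tested all genes. Among genes above the median gene they numbered 1793, or 16.2% of those tested against 11.5%. With array medians set equal 1786 were higher and 858 lower, against 1456 and 1093 as deposited. The replicate numbers are not shown to pair the samples, since same-numbered arrays correlated at -0.11, 0.12 and 0.10 in their deviations; with the replicate number as a block 0 genes passed the adjustment and 2139 the unadjusted p, with Nos2 at 1.41 (unadjusted p = 0.0478, limma adjusted p = 0.511) and Asl at 0.30 (0.149 and 0.616). The cause of these changes was not tested. With 3 and 4 arrays and this spread, the intervals of Arg1, Arg2, Nos2 and Slc7a2 allow differences in either direction.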

Other observations

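Of 12 measured genes of other users and sensors of arginine, 3 were higher with cre at an unadjusted p under 0.05 and 0 lower, against 6.56% and 4.93% of all genes (median -0.03). Rars, the cytosolic arginyl-tRNA synthetase, read 8.89, 8.87 and 8.90 without cre and 9.11, 9.19, 9.04 and 9.10 with cre, a difference of 0.22 ± 0.0565 (SE, limma adjusted p = 0.356). Castor2, of the family of arginine sensors for mTORC1, was 0.25 ± 0.0712 higher (SE, limma adjusted p = 0.386), also with no overlap. Gamt, which completes creatine synthesis from arginine and glycine, was 0.57 ± 0.235 higher (SE, limma adjusted p = 0.430). In the urea cycle and its mitochondrial carriers, 2 of 12 genes were higher at that level and 0 lower, against the same shares (median 0.12). They were Asl and Slc25a12, an aspartate and glutamate carrier (0.20 ± 0.0769, SE, limma adjusted p = 0.416). In ornithine and proline metabolism 0 of 6 genes were past it (median 0.04), with Oat, ornithine aminotransferase, at -0.15 ± 0.101 and Glud1 at 0.20 ± 0.177 (SE).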
